A study of Homo sapiens with 18 samples.

Results

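Bone-forming cells pass through a fixed program: a transcription factor stage, an early matrix stage and a late mineralizing stage. The 9 genes described here mark that program, namely RUNX2, SP7, DLX5, ALPL, SPARC, SPP1, IBSP, BGLAP and PHEX. They were followed across 18 human 3' expression arrays of osteosarcoma cells, through every probe set that the platform annotation gives to exactly 1 of these genes. That rule found 18 probe sets for 8 of the 9 genes, out of 41097 such probe sets for 19775 genes on the array. BGLAP had no probe set of its own.

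The cells came from MNNG/HOS, called MNNG here, and from 143B, 2 established lines that derive from the human osteosarcoma line HOS. MNNG was transformed chemically and 143B with a viral ras oncogene. All cells carried the fluorescent protein ZsGreen. They were stained with the membrane dye PKH26, which is diluted at each division and so marks cells that divided little. They were grown orthotopically, as tumors in bone. The soft tissue part of each tumor was taken, and cells were sorted into a dye-retaining fraction (High, called tumor-initiating cells in the labels) and a dye-diluted fraction (Low, the bulk). The groups were MNNG_Low (4 tumors, MNNG-1231 to MNNG-1233 with MNNG-1235), MNNG_High (the same 4 tumors), 143B_Low (tumors 143B-1251 to 143B-1255) and 143B_High (tumor 143B-1253 and the pools 143B-51&52 and 143B-54&55, read as pairs of the tumors so numbered). The remaining group, MNNG_Lung, held cells from lung metastases, with 1 array numbered MNNG-1233 and 1 labelled Mix. The sources used here do not give the species, strain or age of the host animals or say whether lung cells were sorted. Each model is 1 cell line, and no array held normal bone cells or cells from culture.

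In osteoblasts, DLX5 acts upstream of RUNX2, the master regulator of the lineage, and RUNX2 acts upstream of SP7 (osterix). Together they switch on ALPL, an alkaline phosphatase that frees phosphate for mineral, and the matrix genes. SPARC (osteonectin), SPP1 (osteopontin) and IBSP (bone sialoprotein) encode matrix proteins that bind collagen, cells or mineral, BGLAP encodes osteocalcin, and PHEX encodes a protease of late osteoblasts and osteocytes. Osteosarcomas are bone tumors whose cells lay down osteoid, and how much of this program a line keeps varies between lines.

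The starts of the 3 members called different between the lines are shown first, because RUNX2 is known to bind the letters AACCACA in promoters of bone genes. Each window runs from 250 bases before to 50 bases after a transcript start in RefSeq (assembly GRCh38.p14), 5' to 3' on the strand of the gene, with each AACCACA in capitals. The SPP1 window is chr4:87975464-87975763 on the plus strand. The RUNX2 windows are chr6:45328080-45328379, the upstream promoter, and chr6:45422025-45422324, the downstream one, both on the plus strand. The SPARC window is chr5:151686866-151687165 on the minus strand.
SPP1: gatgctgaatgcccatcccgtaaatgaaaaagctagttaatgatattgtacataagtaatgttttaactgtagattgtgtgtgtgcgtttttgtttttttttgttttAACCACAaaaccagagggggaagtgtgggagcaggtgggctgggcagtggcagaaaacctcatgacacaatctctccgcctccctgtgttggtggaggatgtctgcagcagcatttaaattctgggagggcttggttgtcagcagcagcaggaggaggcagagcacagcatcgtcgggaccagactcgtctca
RUNX2 upstream promoter: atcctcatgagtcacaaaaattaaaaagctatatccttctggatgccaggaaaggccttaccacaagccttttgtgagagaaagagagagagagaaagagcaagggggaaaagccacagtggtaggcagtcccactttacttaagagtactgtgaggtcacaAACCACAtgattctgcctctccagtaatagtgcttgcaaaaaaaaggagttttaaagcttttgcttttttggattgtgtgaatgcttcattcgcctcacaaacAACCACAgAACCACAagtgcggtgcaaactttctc
RUNX2 downstream promoter: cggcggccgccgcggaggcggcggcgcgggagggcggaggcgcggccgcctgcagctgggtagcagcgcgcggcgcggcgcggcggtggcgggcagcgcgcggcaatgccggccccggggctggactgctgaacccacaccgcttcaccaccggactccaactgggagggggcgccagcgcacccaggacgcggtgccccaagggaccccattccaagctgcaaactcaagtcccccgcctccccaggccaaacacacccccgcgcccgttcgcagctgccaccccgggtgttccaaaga
SPARC: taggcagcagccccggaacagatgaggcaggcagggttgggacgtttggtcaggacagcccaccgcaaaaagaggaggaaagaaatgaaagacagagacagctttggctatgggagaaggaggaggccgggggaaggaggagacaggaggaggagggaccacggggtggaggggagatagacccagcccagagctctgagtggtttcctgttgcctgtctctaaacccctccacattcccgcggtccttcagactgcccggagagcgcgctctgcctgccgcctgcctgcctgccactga
The SPP1 window holds the letters 1 time, starting 143 bases before the start. The upstream RUNX2 window holds them 3 times, starting 88 bases before and 15 and 23 bases after the start. The downstream RUNX2 window and the SPARC window do not hold them. Both strands were searched. The RefSeq table held 9 windows for 6 members, and 3 of the 9 had the letters, the third being that of BGLAP. Of all 35116 windows of 300 bases in the table, 4.27% had them. A match in these letters is a description and not a binding site.

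Levels are given as log2 signal, so a step of 1 is a doubling, and a level is compared only with the same probe set on other arrays. Where a gene has several probe sets, the one highest on average stands for it. A probe set was called measurable when it reached 5.36, the median of all values, on at least 3 arrays. The filter kept 8 of the 18 member probe sets. These are 4 of 6 for RUNX2, both for SPARC, 1 of 2 for SPP1 and that of DLX5. So RUNX2, SPP1, SPARC and DLX5 entered the test with 14418 genes in all. SP7, ALPL, IBSP and PHEX did not, and none of their probe sets reached 5.36 on any of the 16 bone tumor arrays.

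The arrays were close in mean signal, between 5.74 and 5.77, and bone tumor arrays of a group correlated with r of 0.956 or more over probe sets. The lung arrays stood apart. They correlated with each other at 0.865, and the 3' probe set of GAPDH, a housekeeping enzyme, read 10.6 and 11.9 on them against 14.08 or more elsewhere. Their interquartile range was 2.09 and 2.28. That range was 2.76 to 3.18 in MNNG_High and 3.26 to 3.48 on the other bone tumor arrays. MNNG_High values were thus less spread than those of the other bone tumor groups, and the part of this in comparisons with MNNG_High was not tested. The difference between the 3' and 5' GAPDH probe sets, which widens as RNA degrades, was 0.343 to 0.412 in MNNG_Low, 0.500 to 0.749 in MNNG_High, 0.429 to 0.850 in 143B_Low and 0.580 to 1.04 in 143B_High. A date in the labels was the same for all 143B arrays and was shared with no MNNG array, so the line and that date cannot be told apart. In all groups, fewer cells of a type and less RNA per cell cannot be told apart.

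**Figure D1:**
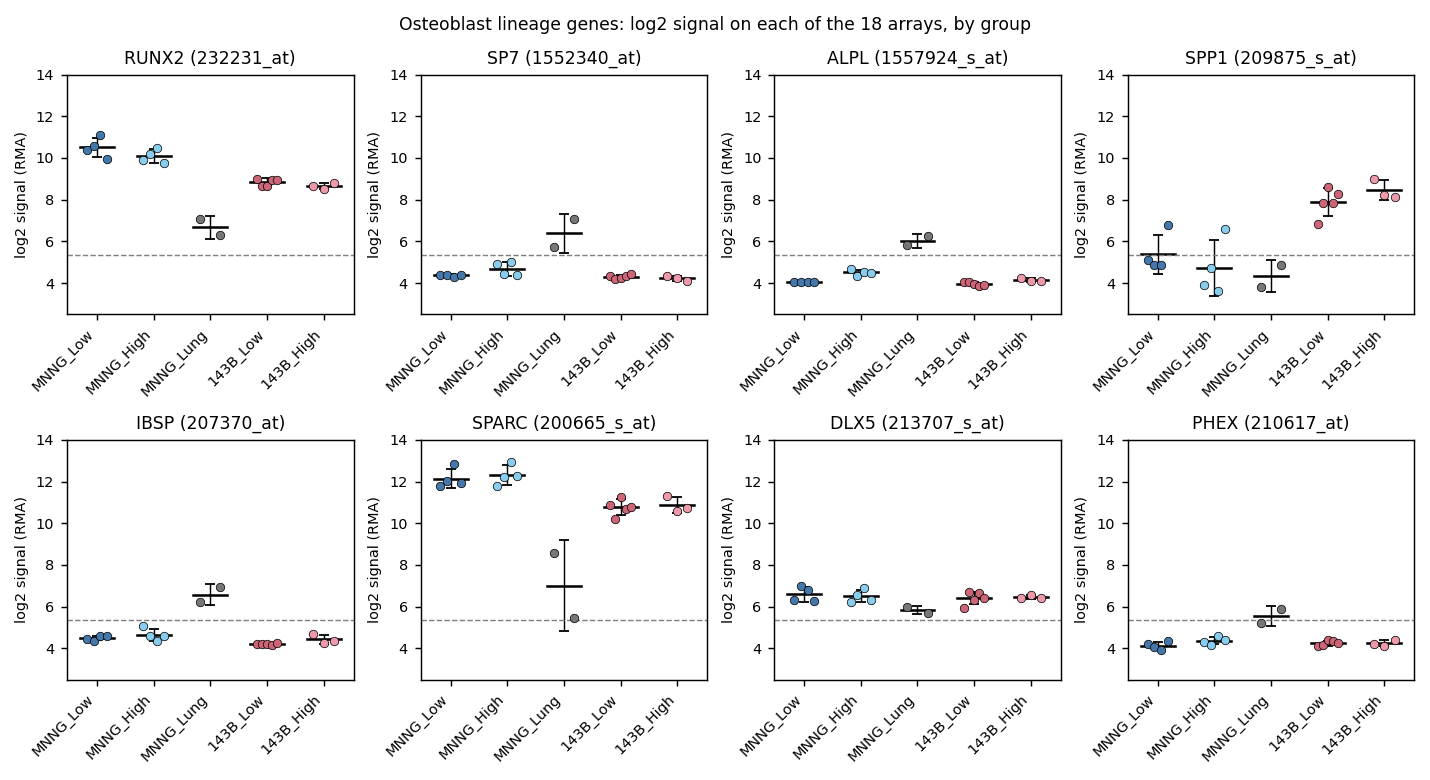
Log2 signal (y axis) of the highest probe set of each of the 8 genes on the 18 arrays, by group (x axis). Points are arrays, bars are group means with SD, and the dashed line is the measurability limit of 5.36. RUNX2 and SPARC were lower in 143B than in MNNG, SPP1 was higher in 143B, and SP7, ALPL, IBSP and PHEX lay under the line in all bone tumor groups.

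In 143B, RUNX2 and SPARC were lower and SPP1 was higher than in MNNG, in Low cells and again in High cells, and no difference was called for DLX5. Of the 4 tested members, 1 was higher and 2 were lower in 143B_Low than in MNNG_Low, where 28.8% of all genes tested were called, 14.4% higher and 14.5% lower. For 143B_High against MNNG_High the member counts were again 1 and 2, where 36.1% of all genes were called, 21.4% higher and 14.7% lower. Calls are from limma with Benjamini-Hochberg adjustment over all genes tested, at 0.05. With 4 genes these counts are a description.

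RUNX2 is described first on 232231_at, its brightest probe set, where the MNNG bone groups had the highest means of the 5 groups. The MNNG_Low arrays read 10.39, 10.57, 11.09 and 9.97 in the order of tumor number. The MNNG_High arrays read 9.91, 10.21, 10.49 and 9.77 for the same tumors. The 143B_Low arrays read 9.01, 8.64, 8.64, 8.96 and 8.92 for tumors 143B-1251 to 143B-1255, and 143B_High read 8.64, 8.51 and 8.82 for tumor 143B-1253 and the pools 143B-51&52 and 143B-54&55. All MNNG bone arrays were above all 143B arrays, and the share of all genes with such a split over both fractions was not computed. Within a fraction, the groups of the 2 lines did not overlap for 38.3% of all genes in Low cells and 42% in High cells. The group means were 10.50 ± 0.46 (SD, n = 4) in MNNG_Low and 8.83 ± 0.18 (SD, n = 5) in 143B_Low. Low cells of 143B were thus 3.19-fold lower (log2 difference -1.67 ± 0.21, standard error, limma adjusted p = 5.74e-06). High cells were 2.71-fold lower (-1.44 ± 0.24, adjusted p = 0.000153). Both calls held under all the alternatives run, namely 21 for the Low and 19 for the High difference. With all probe sets of the gene averaged, the differences were smaller, -0.614 (adjusted p = 0.00068) and -0.671 (adjusted p = 0.00106).

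The 6 RUNX2 probe sets did not all separate the lines. On 236858_s_at the log2 difference of 143B_Low from MNNG_Low was -0.78 ± 0.22 (limma adjusted p = 0.0125 among probe sets) and on 236859_at it was -0.95 ± 0.24 (adjusted p = 0.00534). Between High cells the differences were -0.69 (adjusted p = 0.0435) and -0.74 (adjusted p = 0.0441), and these were no longer called when the filter was dropped (adjusted p = 0.0536 and 0.0546). On 221282_x_at, 221283_at and 216994_s_at no difference between the lines was called. The 95% interval on 221282_x_at was -0.449 to 0.193 for Low cells and -0.784 to -0.053 for High cells (limma adjusted p = 0.0721). The bone tumor groups had means of 5.53 to 6.04 on 221282_x_at, 4.80 to 5.19 on 221283_at and 3.69 to 4.17 on 216994_s_at. The called pair was no brighter, with means of 4.58 to 5.43 on 236858_s_at and 4.10 to 5.05 on 236859_at. Over all probe sets past the filter, 13.6% were called lower in 143B_Low and 12.3% in 143B_High. The RUNX2 difference was thus called on 3 of its 6 probe sets, of which 232231_at alone was well above the limit. No 143B array reached the limit on 236858_s_at or 236859_at, which passed the filter through MNNG arrays alone. With no filter, this pair was still called in Low cells, but in High cells 232231_at alone was called. All 6 estimates were below 0 in both fractions.

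DLX5, the homeobox factor upstream of RUNX2, overlapped in level across the bone tumor groups. MNNG_Low arrays read 6.32, 6.98, 6.81 and 6.27, and MNNG_High arrays read 6.22, 6.56, 6.87 and 6.31. 143B_Low arrays read 5.95, 6.71, 6.33, 6.63 and 6.39, and 143B_High arrays read 6.40, 6.55 and 6.42. No group stood apart. The log2 difference of 143B_Low from MNNG_Low was -0.19, with a 95% interval of -0.575 to 0.189 (limma adjusted p = 0.492). Between High cells it was -0.03, with an interval of -0.464 to 0.405 (adjusted p = 0.921).

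SP7, the zinc finger factor downstream of RUNX2, did not reach the limit on any bone array. Its probe set read 4.29 to 4.39 in MNNG_Low, 4.36 to 5.01 in MNNG_High, 4.19 to 4.42 in 143B_Low and 4.10 to 4.32 in 143B_High. In the fit with no filter, no difference between the lines was called (-0.06, limma adjusted p = 0.926 among probe sets for Low cells; -0.45, adjusted p = 0.158 for High cells).

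SPARC, the collagen-binding matrix protein, was lower in 143B, as RUNX2 was. On 200665_s_at the MNNG_Low arrays read 11.78, 12.03, 12.82 and 11.91 and the MNNG_High arrays 11.78, 12.20, 12.95 and 12.28, in the same order of tumors. The 143B_Low arrays read 10.88, 10.21, 11.26, 10.67 and 10.80, and 143B_High read 11.30, 10.60 and 10.71. No 143B array reached the lowest MNNG bone array. 143B_Low was 2.59-fold lower (-1.37 ± 0.43, limma adjusted p = 0.0211) and 143B_High 2.69-fold lower (-1.43 ± 0.49, adjusted p = 0.0296). The second SPARC probe set, 212667_at, was 9.51 to 10.18 in MNNG_Low and 6.85 to 8.36 in 143B_Low. There the Low difference was -2.0 ± 0.30 (limma adjusted p = 6.20e-05 among probe sets) and the High difference -1.99 ± 0.35 (adjusted p = 0.000281).

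The call on 200665_s_at was near the threshold. For Low cells it held in 16 alternatives and ended in 5, and for High cells it held in 13 and ended in 6. The fit shares 1 spread among the groups, and the SD on this probe set was 2.19 in MNNG_Lung against 0.38 to 0.48 in the bone tumor groups. Settings in which the call ended are given next. After a second quantile normalization the adjusted p was 0.132 for Low and 0.120 for High cells by limma. Without 143B_Low array 143B-1252 the Low difference was -1.23 (limma adjusted p = 0.055), and without MNNG_Low array MNNG-1233 it was -1.14 (adjusted p = 0.0822). For High cells the adjusted p was 0.104 without pool 143B-51&52, 0.0859 without pool 143B-54&55 and 0.0863 without MNNG_High array MNNG-1233. With the GAPDH 3' minus 5' difference as a covariate the differences were -0.854 (adjusted p = 0.199) for Low and -1.11 (adjusted p = 0.0682) for High cells. The ranges of that covariate did not overlap between the Low groups and overlapped between the High groups.

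SPP1 went the other way. On 209875_s_at the MNNG_Low arrays read 5.08, 4.84, 4.85 and 6.78, and the MNNG_High arrays 3.91, 4.74, 3.62 and 6.60, in the order of tumors above. The 143B_Low arrays read 6.84, 7.83, 8.61, 7.86 and 8.27, and 143B_High read 8.99, 8.20 and 8.13. All 143B arrays were above all MNNG bone arrays, though by little for the lowest, 6.84 against 6.78. In MNNG, tumor MNNG-1235 alone exceeded the limit, in both fractions, so SPP1 passed the filter through the 143B arrays. The means were 7.88 ± 0.67 (SD, n = 5) in 143B_Low and 5.39 ± 0.94 (SD, n = 4) in MNNG_Low. Low cells were 5.63-fold higher in 143B (2.49 ± 0.53, limma adjusted p = 0.00133) and High cells 13.2-fold higher (3.72 ± 0.60, adjusted p = 0.000121). Most MNNG values lay under the limit, so the size of these folds is uncertain. Both calls held under all the alternatives run that have a value for SPP1, 20 for Low and 18 for High cells. With no filter the limma adjusted p was 0.00153 for Low and 0.000137 for High cells. With both probe sets averaged, the differences were 1.27 (adjusted p = 0.00198) and 1.81 (adjusted p = 0.000327). Without both arrays of tumor MNNG-1235, a setting added after its values were seen, the differences were 2.96 (adjusted p = 9.82e-06) and 4.35 (adjusted p = 6.76e-07). The other SPP1 probe set, 1568574_x_at, stayed between 2.70 and 3.18 on every array and showed no called difference.

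PHEX, ALPL and IBSP were dim in both lines, with no tested value past the filter. PHEX probe set 239229_at read 3.14 to 3.63 in MNNG_Low and 4.0 to 4.94 in 143B_Low. These groups did not overlap, which was also seen for 38.3% of all genes past the filter. In the fit with no filter it was higher in 143B by 1.12 ± 0.21 in Low cells (limma adjusted p = 0.000624 among probe sets) and by 0.97 ± 0.24 in High cells (adjusted p = 0.00653). In that fit 9.41% of all probe sets were called higher in 143B_Low and 13.2% in 143B_High. The other PHEX probe set, 210617_at, showed neither difference (adjusted p = 0.690 and 0.577), and all of these values lie under 5.36. ALPL 1557924_s_at was lower in 143B_High than in MNNG_High by 0.36 on the log2 scale (-0.36 ± 0.13, adjusted p = 0.0496), where 9.38% of probe sets were called lower, and ALPL 215783_s_at was not called (adjusted p = 0.827). IBSP, a sialoprotein of mineralizing matrix, read 4.18 to 5.06 on 207370_at over the bone arrays, and no line difference was called on its 2 probe sets (adjusted p = 0.243 to 0.944).

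**Figure D2:**
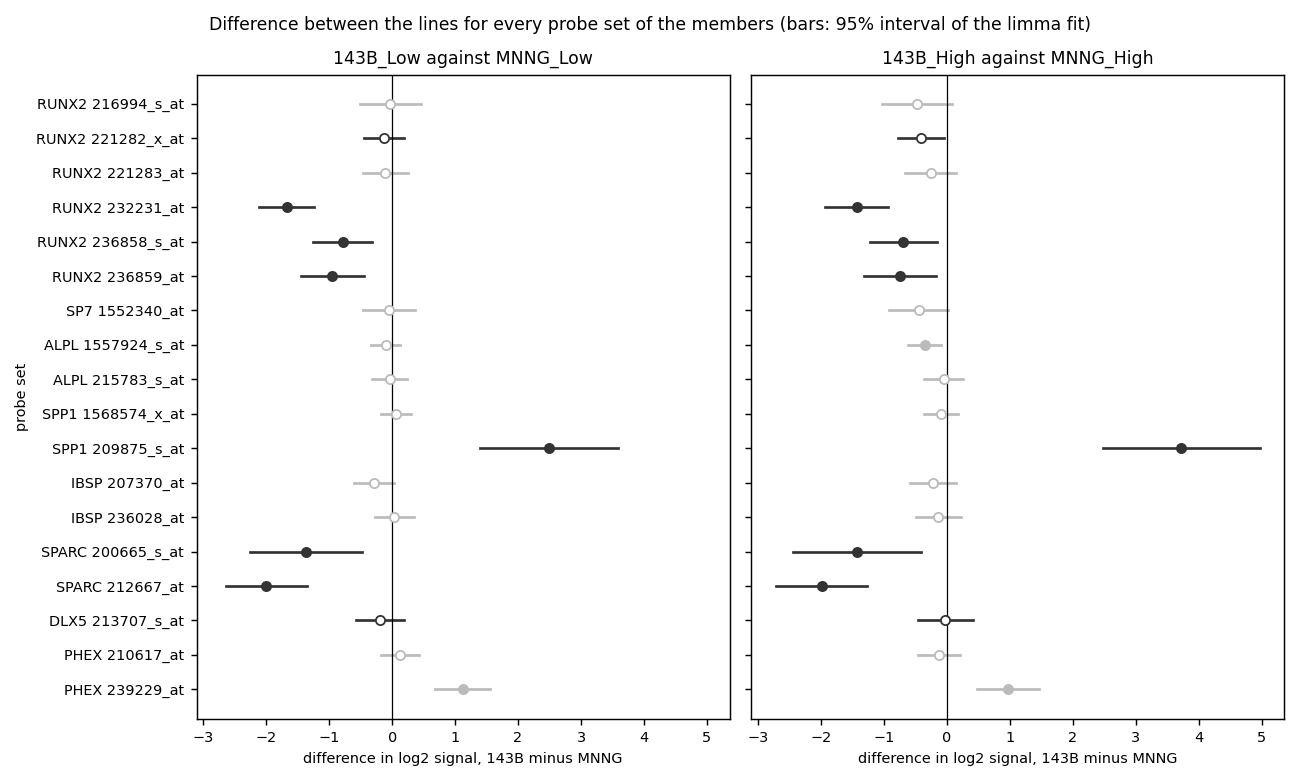
Difference in log2 signal, 143B minus MNNG (x axis), for each of the 18 member probe sets (y axis), in Low cells (left) and High cells (right). Points are limma estimates with 95% intervals, filled where the adjusted p was under 0.05, dark for probe sets past the filter and grey for those fitted with no filter. SPP1 209875_s_at lies at 2.49 and 3.72, both SPARC and all 6 RUNX2 probe sets lie to the left of 0, 3 of the latter filled in each panel, and the intervals of DLX5 span 0.

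Genes around the members were read from 5 lists. Of the bone matrix list (fibrillar collagens, small proteoglycans and the enzymes that assemble them), 15 of 19 genes passed the filter, and 9 were lower and 1 higher in 143B_Low than in MNNG_Low. Its median log2 difference was -1.23, against -0.04 over all genes, of which 14.5% were called lower and 14.4% higher. COL5A1, a collagen V chain, was lowest relative to MNNG at -3.11 ± 0.25 (limma adjusted p = 2.41e-08). COL1A2, a chain of the main bone collagen, differed by -2.32 ± 0.38 (adjusted p = 0.000109), COL5A2 by -2.14 ± 0.40 (adjusted p = 0.000453) and BGN (biglycan) by -1.65 ± 0.30 (adjusted p = 0.000367). Between High cells 8 were lower and 1 higher, where 14.7% of all genes were called lower and 21.4% higher. COL1A1, the other chain of collagen I, was 9.36-fold lower in 143B_High (-3.23 ± 0.84, adjusted p = 0.00646), and LOX, the enzyme that crosslinks collagen, was the 1 that was higher (1.43 ± 0.34, adjusted p = 0.00372). The count of lower genes in High cells was 3, not 8, without the arrays that hold tumor 143B-1252, a setting added after the values were seen. With the GAPDH difference as a covariate, the count in Low cells was 5, not 9.

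Of the signals and receptors of osteoblasts, 13 passed the filter. In 143B_Low 5 of them were higher and 2 lower, where 14.4% of all genes were called higher and 14.5% lower. In 143B_High 6 were higher and 0 lower by limma, with 1 lower at an unadjusted p under 0.05. There 21.4% of all genes were called higher and 14.7% lower. After a second quantile normalization the counts were 3 higher and 2 lower in each fraction. BMP2, a ligand that drives osteoblast differentiation, was 11.1-fold higher in 143B_Low (3.47 ± 0.25, adjusted p = 5.00e-09) and 18.5-fold higher in 143B_High (4.21 ± 0.28, adjusted p = 3.75e-09). TNFRSF11B (osteoprotegerin, the decoy receptor that restrains osteoclasts) was 7.78-fold and 12.8-fold higher (2.96 ± 0.57, adjusted p = 0.000564; 3.68 ± 0.65, adjusted p = 0.000290). FGFR3, a growth factor receptor, was lower in Low cells (-0.87 ± 0.19, adjusted p = 0.00170). FGF2, a growth factor, was higher there (0.93 ± 0.23, adjusted p = 0.00387). The Wnt receptors LRP5 and LRP6 were higher in 143B_High, by 0.67 ± 0.16 (adjusted p = 0.00368) and 1.31 ± 0.37 (adjusted p = 0.0115).

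Transcription partners of RUNX2 were called in both directions. Of 11 tested, 1 was higher and 2 lower in 143B_Low, and 2 were higher and 2 lower in 143B_High. These counts are near the share of all genes called, 28.8% between Low and 36.1% between High cells. TWIST2, a basic helix-loop-helix repressor of RUNX2 function, was higher in 143B in both fractions (0.63 ± 0.14, limma adjusted p = 0.00204; 1.09 ± 0.16, adjusted p = 5.01e-05). MSX1, a homeobox factor, was higher in 143B_High (1.07 ± 0.25, adjusted p = 0.00280). VDR, the vitamin D receptor, was lower in both (-0.71, adjusted p = 0.00833; -0.77, adjusted p = 0.0111), and so was MEF2C (-0.71, adjusted p = 0.0125; -0.70, adjusted p = 0.0249). With the GAPDH difference as a covariate, VDR was called in High cells alone (adjusted p = 0.0665 for Low and 0.0241 for High cells) and MEF2C in neither (adjusted p = 0.118 and 0.0555). Of 6 mineralization genes, 1 was called in each fraction. It was ENPP1, the enzyme that makes the mineral inhibitor pyrophosphate, higher in 143B by 1.27 ± 0.28 (adjusted p = 0.00176) and 2.09 ± 0.32 (adjusted p = 6.63e-05). Of 5 osteocyte genes 2 passed the filter, and neither was called between the lines by limma (1 at an unadjusted p under 0.05 in Low cells, 0 in High cells).

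**Figure D3:**
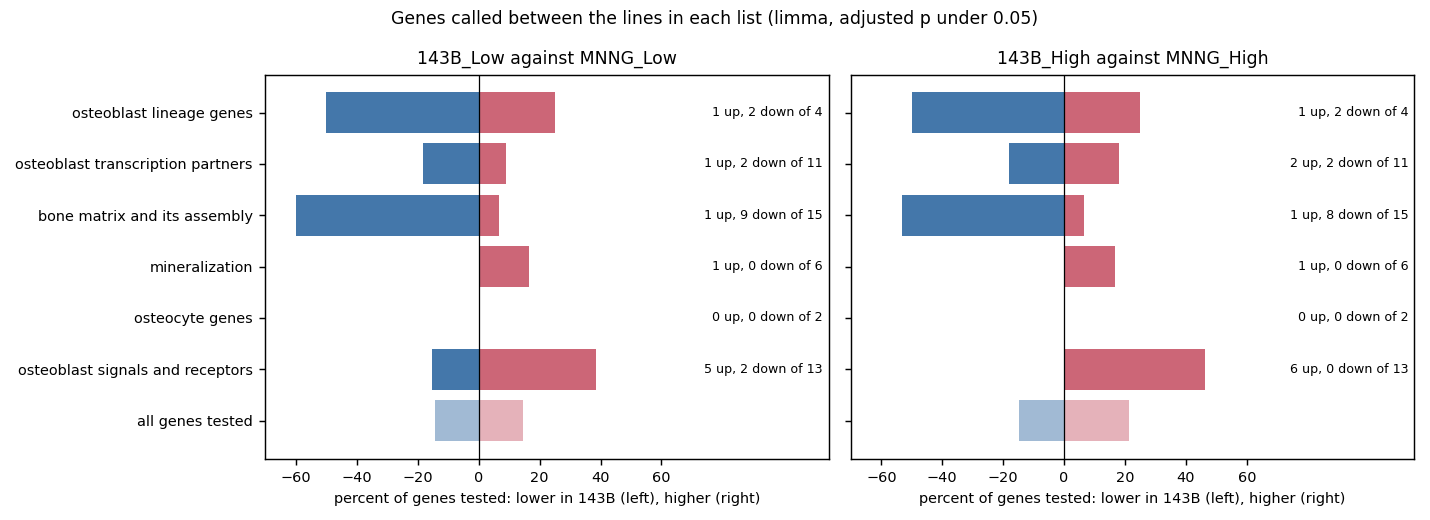
Percent of tested genes called lower (left of 0) or higher (right of 0) in 143B than in MNNG for the members and 5 related lists, with all genes tested at the bottom, in Low cells (left panel) and High cells (right panel). The counts are printed beside the bars. In the bone matrix list 9 of 15 and 8 of 15 genes were lower in 143B, and in the signals list 5 of 13 and 6 of 13 were higher.

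Markers of other cells were read beside these differences. The summed signal of 11 macrophage markers was 435 to 552 in MNNG_Low and 381 to 479 in 143B_Low, and 959 to 1878 in MNNG_High and 583 to 837 in 143B_High. Of 6 macrophage markers past the filter, 0 were called between the Low groups (1 at an unadjusted p under 0.05), and 3 were lower in 143B_High than in MNNG_High by limma. Proliferation markers were higher in 143B for 4 of 10 genes in Low cells and 8 of 10 in High cells. Osteoclast markers, of which 5 passed the filter, were higher for 2 and lower for 1 in 143B_Low, and higher for 3 and lower for 1 in 143B_High. Of all genes tested, 14.4% were called higher and 14.5% lower in 143B_Low, and 21.4% and 14.7% in 143B_High. The part of these markers in the line differences was not tested.

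Within a line, no difference between High and Low cells was called for the members. In MNNG_High against MNNG_Low 0 of the 4 tested members were called by limma, and 0 had an unadjusted p under 0.05, where 26.1% of all genes were called. In 143B_High against 143B_Low both counts were again 0, and 0.00694% of all genes were called, which is 1 gene. In MNNG, RUNX2 differed by -0.41 ± 0.22 (limma adjusted p = 0.155), SPP1 by -0.67 ± 0.56 (adjusted p = 0.346), SPARC by 0.17 ± 0.45 (adjusted p = 0.785) and DLX5 by -0.11 ± 0.19 (adjusted p = 0.667). The median over all genes was -0.19 in this comparison. The RUNX2 value is that of 232231_at. Its other probe sets lay between -0.22 on 236859_at and 0.43 on 216994_s_at, with 221282_x_at at 0.38 (adjusted p = 0.0832 among probe sets), none of them called. With the RUNX2 probe sets averaged the difference was 0.0888 (limma adjusted p = 0.599). In 143B the 4 differences were -0.17, 0.56, 0.11 and 0.06 in the same order, each with an adjusted p of 0.999 by limma. The 95% interval for SPP1 was -1.84 to 0.498 in MNNG and -0.645 to 1.77 in 143B.

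The High and the Low array of a tumor deviated from their group means together, so a fit with the tumor as a replicate block is given beside this result. In that block RUNX2, read on 232231_at alone, was lower in MNNG_High (-0.409 ± 0.110, limma adjusted p = 0.0114) and so was SPP1 (-0.669 ± 0.197, adjusted p = 0.0161), where 54.4% of all genes were called, 36.8% lower. On the same arrays with no block the adjusted p was 0.113 for RUNX2 and 0.333 for SPP1. The block gave no call for SPARC or DLX5 in MNNG, nor for any of the 4 in 143B, where 0.0555% of all genes were called. Without MNNG_High array MNNG-1235 and with no block, the SPP1 difference was -1.30 (limma adjusted p = 0.0371), a setting that keeps the Low array of that tumor. Without that Low array instead, the SPP1 difference was -0.204 (adjusted p = 0.788). Without both arrays of the tumor it was -0.831 (adjusted p = 0.113), so the call rested on splitting the pair.

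The fractions of MNNG also differed in date. The Low arrays other than that of MNNG-1231 share a date that no other array has, and the other MNNG arrays share a second one. With the date as a block, or within the second date, which leaves that Low array alone against the 4 High arrays and assumes that it varies like the other groups, the RUNX2 difference was -0.293 (limma adjusted p = 0.680 and 0.931) and the SPP1 difference -0.361 (adjusted p = 0.851 and 0.948). Macrophage markers rose in the same comparison, 4 of 6 being called higher, among them AIF1 (2.34 ± 0.27, adjusted p = 0.000258). Proliferation markers fell, with 4 of 10 called lower, where 26.1% of all genes were called in either direction. The part of these in the RUNX2 and SPP1 values was not tested.

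Tumor by tumor, the SPP1 steps had opposite signs in the lines. High minus Low was -1.17, -0.10, -1.22 and -0.18 in MNNG, again in the order of tumor numbers. In 143B it was 0.38 in tumor 143B-1253 and 0.86 and 0.07 in the pools 143B-51&52 and 143B-54&55. All 4 MNNG tumors were below 0 and all 3 143B tumors or pools above it, with the smallest steps close to 0 in each line. Of all genes tested, 2.23% showed this pattern in this direction and 3.02% in either. The difference between the lines in High against Low was 1.23 ± 0.80 (limma adjusted p = 0.551), in a comparison that called 0.00694% of all genes. With the tumor as a block it was 1.11 ± 0.30 (limma adjusted p = 0.176), and 0.0208% of all genes were called. SPP1 was called in neither.

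RUNX2 232231_at was lower in High in each of the 4 MNNG tumors (-0.48, -0.36, -0.60 and -0.20) and was -0.00, -0.31 and -0.11 in 143B. Other RUNX2 probe sets went the other way in MNNG. The step was 0.53, 0.43, 0.41 and 0.33 on 216994_s_at and 0.43, 0.31, 0.16 and 0.24 on 221283_at, both under the limit. On 221282_x_at it was above 0 in 3 of the 4 tumors. No direction of RUNX2 between the MNNG fractions holds over its probe sets. SPARC on 200665_s_at changed by -0.01, 0.17, 0.13 and 0.37 in MNNG and by 0.04, 0.06 and -0.03 in 143B. DLX5 changed by -0.11, -0.42, 0.06 and 0.04 and by 0.07, 0.22 and -0.09. SPARC 200665_s_at and DLX5 thus had steps on both sides of 0 in each line. On the other SPARC probe set, 212667_at, the steps were -0.43, -0.06, -0.53 and 0.21 in MNNG and -0.30, -0.43 and -0.15 in 143B, below 0 in all 3.

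**Figure D4:**
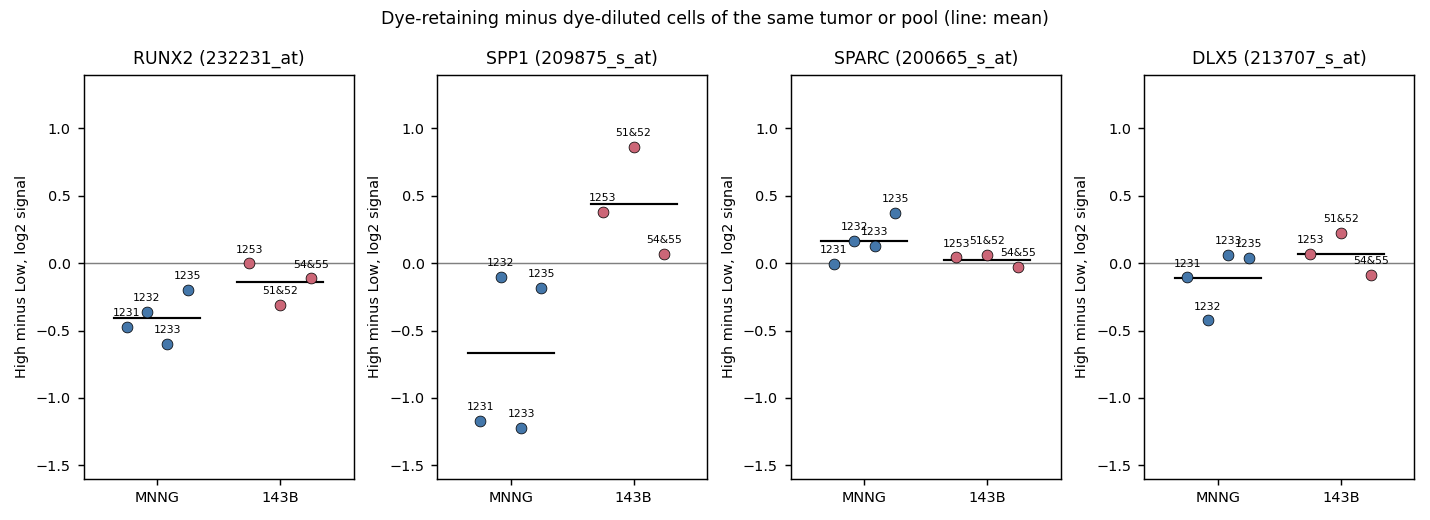
High minus Low log2 signal (y axis) for each MNNG tumor and each 143B tumor or pool (x axis, by line) for the highest probe set of the 4 tested members, where a pool is set against the mean of the Low arrays of its tumors. Points are tumors, labelled by number, and lines are means. SPP1 lies below 0 in all 4 MNNG tumors and above 0 in all 3 of 143B, RUNX2 232231_at lies below 0 in all 4 MNNG tumors, and SPARC 200665_s_at and DLX5 straddle 0.

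Some tumors stood at the edge of their group in both fractions. SPP1 in tumor MNNG-1235 was 6.78 in Low and 6.60 in High cells, against 3.62 to 5.08 on the other MNNG bone arrays. SPARC was lowest among 143B arrays in Low tumor 143B-1252 (10.21 and 6.85 on its 2 probe sets) and, among 143B_High, in pool 143B-51&52 (10.60 and 6.94), which was read as holding that tumor. RUNX2 232231_at and SPARC 200665_s_at were highest within MNNG_Low (11.09 and 12.82) and within MNNG_High (10.49 and 12.95) in tumor MNNG-1233.

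Among the dim members, ALPL 1557924_s_at was the single member probe set called between the fractions of MNNG when no filter was set. It read 4.07, 4.05, 4.07 and 4.07 in MNNG_Low and 4.67, 4.34, 4.53 and 4.49 in MNNG_High. The difference was 0.44 ± 0.12 (limma adjusted p = 0.0200 among probe sets), where 7.94% of probe sets were called higher. ALPL 215783_s_at was not called (0.09, adjusted p = 0.658), and all values are under the limit. No member probe set was called between the fractions of 143B, where 0.0073% of probe sets were. SP7, IBSP and PHEX were not called in MNNG either (adjusted p = 0.236 to 0.822).

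Most genes differed between the lung metastasis arrays and the MNNG bone arrays. Against MNNG_Low, RUNX2, SPARC and DLX5 were lower on their highest probe sets and a change in SPP1 was not called, where 87% of all genes tested were called (35.1% of those tested were higher and 51.9% lower). Against MNNG_High the same 3 members were lower, where 82.4% of all genes were called (34.8% higher and 47.6% lower). The median over all genes was -0.64 and -0.37 in these comparisons. In the fits with no filter the median against MNNG_Low was above 0, at 0.43 over all genes and 0.53 over all probe sets. Each lung value below stands against the shift of its own fit.

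SPARC fell furthest of the 4. The lung arrays read 8.55 (lung array MNNG-1233) and 5.45 (Mix) on 200665_s_at, and 5.54 and 4.01 on 212667_at. The first was 35.1-fold lower than MNNG_Low (-5.13 ± 0.55, limma adjusted p = 7.10e-08) and the second differed by -5.02 ± 0.39 (adjusted p = 9.34e-10 among probe sets), where 49.3% of all probe sets were called lower. The lung arrays differed widely from each other on the first. The difference was -6.68 without lung array MNNG-1233 and -3.58 without Mix.

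RUNX2 probe sets disagreed in the lung. On 232231_at the lung arrays read 7.07 and 6.28, which is 14.2-fold below MNNG_Low (-3.83 ± 0.27, limma adjusted p = 1.84e-10). On 221282_x_at they read 7.16 and 7.45 and were higher than MNNG_Low by 1.64 ± 0.20 (adjusted p = 3.26e-07 among probe sets). On 221283_at they were higher by 1.94 and on 216994_s_at by 2.12, in the fit with no filter, where 52.3% of probe sets were called higher. The remaining pair, 236858_s_at and 236859_at, were not called. When the probe sets of a gene were averaged, the RUNX2 difference was 0.337 (adjusted p = 0.0521), so no direction for RUNX2 in the lung holds over its probe sets.

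DLX5 read 5.97 and 5.71 in the lung, below all MNNG bone arrays (-0.76 ± 0.23 against MNNG_Low, limma adjusted p = 0.00582). Without the Mix array the difference was -0.629 (adjusted p = 0.0574), and with array weights the adjusted p was 0.289. With the date as a block it was -0.483 (adjusted p = 0.186). SPP1 read 3.79 and 4.87, within the range of MNNG_High (-1.05 ± 0.68 against MNNG_Low, adjusted p = 0.153).

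SP7, ALPL, IBSP and PHEX rose above the limit on lung arrays alone, each on its highest probe set and PHEX on the Mix array only. SP7 read 5.71 and 7.05, ALPL 1557924_s_at 5.80 and 6.27, IBSP 207370_at 6.24 and 6.92 and PHEX 210617_at 5.21 and 5.87, for lung array MNNG-1233 and Mix. With no filter all 4 genes were higher on these probe sets than in MNNG_Low, by 1.41 for PHEX to 2.08 for IBSP (limma adjusted p of 7.11e-07 or less), where 50% of all 19775 genes were called higher. The second probe sets of ALPL, IBSP and PHEX stayed under the limit on both lung arrays. Their differences from MNNG_Low were 0.41 on ALPL 215783_s_at, 1.35 on IBSP 236028_at and 0.82 on PHEX 239229_at. The median over all probe sets was 0.53 in that fit. Markers of other cells rose there too, with 6 of 6 macrophage, 6 of 7 lung epithelium and 4 of 4 endothelium markers past the filter called higher. Of all genes past the filter, 35.1% were. The summed macrophage signal was 1991 to 2363. GAPDH was also lower there, as given above, and the part of either in these values was not tested.

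Across the 18 arrays, the genes most like each member differed. Likeness is Pearson's r of log2 signal over arrays and is descriptive, since the arrays share lines, tumors and the lung samples. RUNX2 was most like SDC2 (r = 0.977), PRMT2 (0.977) and DECR1 (0.974). SPARC was most like ZC2HC1A (0.982), SNAI2 (0.982) and FN1 (0.981), the last encoding fibronectin. SPP1 was most like TNFRSF11B (0.956), MMP10 (0.954) and LINC02985 (0.953). DLX5 had looser neighbors, CREM (0.854), TXNIP (0.841) and H2BC9 (0.815). Over the 16 bone arrays RUNX2 and SPARC had r of 0.890, while SPP1 had -0.891 with RUNX2 and -0.782 with SPARC, values that carry the line difference itself.

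BGLAP, the osteocalcin gene, was read only through 206956_at, which the annotation gives to PMF1-BGLAP, PMF1 and BGLAP. It read 5.98 to 6.22 in MNNG_Low, 5.78 to 6.06 in MNNG_High, 5.72 to 5.93 in 143B_Low and 5.78 to 5.89 in 143B_High. On the lung arrays it read 6.07 and 6.74. Since 3 genes share it, these values were not assigned to osteocalcin and were not tested.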

How the data were processed

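RNA of 18 samples was hybridised to Affymetrix human 3' arrays. The deposited log2 values are probe set signals. The authors used RMA, per the submitters' processing notes, and the sources used here do not give its version. Samples were grouped from their titles and tumor numbers. Of 54675 probe sets, 41097 have 1 gene in the platform annotation. The probe set highest on average stood for a gene, and 14418 genes reaching 5.36 on at least 3 arrays were fitted together with 5 group means (R 4.3.3, limma 3.58.1), with Benjamini-Hochberg adjustment over all genes tested. Every member was also fitted as probe sets, with and without the filter. The fit was tested on simulated data. Tumor numbers pair High and Low arrays: same-tumor deviations correlated with r of 0.299 to 0.579. Named genes are all members, up to 4 called genes of smallest p per list and comparison, and 3 most alike per member. Members and lists were chosen with earlier results of these data known. No detection call was used, so folds from values under 5.36 are uncertain. P-values of the fit of all arrays rest on 1 spread between arrays per gene, shared by the 5 groups. There the High and Low arrays of a tumor were taken as independent. Those of the tumor block rest on the spread of differences within tumors. Alternatives were other normalizations, filters, probe set rules, blocks, weights and left-out arrays.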

Additional observations from a re-analysis of the deposited data

Results flagged for a closer look

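A single array stood apart from its group in 6 of the 54 sets of values of 4 or more arrays looked at, where chance gives about 1 in 20. SPP1 in MNNG_Low was 6.78 in tumor MNNG-1235, and the next value was 5.08. The same tumor had 6.60 in High cells. The other 5 lie at low signal. RUNX2 216994_s_at in MNNG_High was 3.87 in tumor MNNG-1235 against 4.24 for the next. SP7 in MNNG_Low was 4.29 in tumor MNNG-1233 against 4.38. ALPL 215783_s_at in MNNG_High was 4.11 in tumor MNNG-1231 against 3.86. IBSP 236028_at in 143B_Low was 2.97 in tumor 143B-1251 against 2.81. PHEX 239229_at in MNNG_High was 4.04 in tumor MNNG-1233 against 3.37.

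SPP1 was lower in High in every MNNG tumor and higher in every 143B tumor or pool, a difference between the lines of 1.23 (limma adjusted p = 0.551; 0.176 with the tumor as a block).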

How the results depend on the processing

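Over the 4 tested members, 530 results under the alternatives kept their direction and their side of the threshold, 19 lost their call, 4 gained one and 33 changed sign. Of the 33, 2 had been called, both for RUNX2 in the lung, which was 0.337 against MNNG_Low (limma adjusted p = 0.0521) and 0.248 against MNNG_High (adjusted p = 0.15) with averaged probe sets. The other sign changes were of differences that were not called. With averaged probe sets RUNX2 became 0.0888 in MNNG_High against MNNG_Low, 0.0314 in 143B_High against 143B_Low and -0.0574 in the difference between the lines, and SPARC became -0.0187 and -0.0449 in the first and second of these. Without types _x_at and _s_at SPARC became -0.203, -0.197 and 0.00511 in the same comparisons. For DLX5 between the MNNG fractions the difference became 0.0035 after a second quantile normalization and 0.167 with the date as a block and within the second date. Between the High groups DLX5 became 0.0371 after median centring and 0.0274 with the GAPDH covariate. The SPARC difference between the lines became 0.00915 after median centring and 0.012 without tumor MNNG-1235, where SPP1 in the lung became 0.242 against MNNG_High. Without single arrays, DLX5 ran from -0.234 to 0.0216 between the MNNG fractions, from -0.0561 to 0.133 between the 143B fractions and from -0.12 to 0.0974 between the High groups. SPARC ran from -0.0501 to 0.394 in MNNG, from -0.107 to 0.242 in 143B (0.231 at most with both pools kept) and from -0.286 to 0.158 in their difference (0.077 without pool 143B-51&52 and 0.0227 without pool 143B-54&55), and SPP1 in the lung from -0.924 to 0.242 against MNNG_High.

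Without probe sets of types _x_at and _s_at, SPP1 had no probe set left and DLX5 none either. SPP1 in the lung was -1.65 against MNNG_Low after a second quantile normalization (adjusted p = 0.0347). Apart from RUNX2 and SPP1 in MNNG, the tumor block changed no call of a member.

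Counts of called genes moved more. MNNG_High against MNNG_Low called 3761 genes in the fit of all arrays. It called 6777 probe sets, and 1028 genes after a second quantile normalization, 6407 without the lung arrays, 2317 with only these groups, 5670 with array weights, 1547 with the GAPDH covariate and 3 with the date as a block. Within the second date it called 0 (limma, 353 at an unadjusted p under 0.05), and without single arrays 1376 to 5939. The tumor block called 7849, and 6000 were called on the same arrays with no block. The split moved from 1532 higher and 2229 lower to 744 and 284 after the second normalization and to 989 and 3721 after median centring.

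For 143B_High against 143B_Low 1 gene was called, against 3 probe sets, 9 genes with only these groups, 201 with array weights, 2 with the GAPDH covariate and 8 with the tumor block. By limma 0 were called without types _x_at and _s_at (630 at an unadjusted p under 0.05), after the second normalization (433), on the block's arrays with no block (774) and without the arrays holding tumor 143B-1252 (580). Without single arrays 0 to 2 were called. For the difference between the lines 1 gene was called, against 234 with array weights, 3 with the block and 1 to 4 without single arrays. It was 0 by limma with averaged probe sets (1379 at an unadjusted p under 0.05), without types _x_at and _s_at (1126), on the block's arrays with no block (2061) and without tumor 143B-1252 (857).

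Between the Low groups 4158 genes were called, against 7206 probe sets, 6529 genes with only these groups and 7024 with array weights. Between the High groups 5203 were called, against 8694 probe sets, 3225 genes without tumor 143B-1252 and 3465 to 6297 without single arrays. That split was 3081 higher and 2122 lower, and became 1836 and 2046 after the second normalization and 3416 and 1605 after median centring. The lung called 12541 genes against MNNG_Low and 11879 against MNNG_High, and 22414 and 20834 probe sets. The cause of these changes was not tested. Values under 5.36 and the small number of arrays limit the precision.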
